A study of Mus musculus with 4 samples.

Results

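The Ifitm genes Ifitm1, Ifitm2, Ifitm3 and Ifitm6, together with Ifi27l2a, were followed by symbol through 4 single-cell RNA libraries of mouse CD45-positive cells (leukocytes). They are 5 of the 31017 gene symbols of the bone marrow matrices and of the 32245 of the tumor matrices, and all 5 were found in every library. The genes were selected on measured values, namely the KO over WT ratios of an earlier pass over these same libraries, so every ratio of a member below is a description and none is tested. KO mice carried S100a8fl/fl and Vav-Cre+/-, in which Cre under the Vav promoter deletes S100a8 throughout the hematopoietic system. WT mice carried the same S100a8fl/fl alleles without Cre (Vav-Cre-/-), so floxed S100a8 was common to all groups. The groups were KO bone marrow and WT bone marrow from mice without tumors, and KO tumor and WT tumor from tumors of LLC, the mouse Lewis lung carcinoma line. No group was treated, and no age was given in the sources used here. Each group was 1 library that pooled 3 mice, so differences between mice cannot be seen.

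Interferons bind receptors on nearly every cell type and switch on a shared set of genes through dedicated transcription factors. The Ifitm genes encode small membrane proteins that restrict the entry of enveloped viruses, and Ifitm1, Ifitm2 and Ifitm3 are interferon-inducible in many cells, while also being expressed without interferon in some of them. Ifi27l2a encodes a small interferon-inducible protein of the family named after human IFI27, and is commonly read as a sign of type I interferon exposure.

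On GRCm38 (GENCODE M21), the Ifitm genes lie together on chromosome 7, within 63.1 kb. Ifitm2 (ENSMUSG00000060591) spans 140954837 to 140955987 on the minus strand, and Ifitm1 (ENSMUSG00000025491) spans 140967221 to 140969825 on the plus strand. Ifitm3 (ENSMUSG00000025492) spans 141009586 to 141010770 and Ifitm6 (ENSMUSG00000059108) spans 141015699 to 141017924, both on the minus strand. Ifi27l2a (ENSMUSG00000079017) lies apart, on chromosome 12, 103442167 to 103443680, minus strand. All 5 are annotated as protein-coding. Related genes such as Ifitm2 and Ifitm3, or Ifi27l2a and Ifi27l2b, can share sequence, and the counting could have split or lost some of their reads. How alike their transcripts are was not measured here.

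The promoters are shown because neighbors in the Ifitm cluster went different ways between KO and WT. RefSeq promoter windows (GRCm38.p6, 250 bases before to 50 after the annotated start) matched 4 of the 5 members. A pair of motifs was searched on both strands, written GAAANNGAAA for the interferon-stimulated response element (ISRE) and TTCNNNGAA for the gamma-activated site (GAS), and capitals mark their matches.
Ifitm1, chr7:140967826-140968125, plus strand: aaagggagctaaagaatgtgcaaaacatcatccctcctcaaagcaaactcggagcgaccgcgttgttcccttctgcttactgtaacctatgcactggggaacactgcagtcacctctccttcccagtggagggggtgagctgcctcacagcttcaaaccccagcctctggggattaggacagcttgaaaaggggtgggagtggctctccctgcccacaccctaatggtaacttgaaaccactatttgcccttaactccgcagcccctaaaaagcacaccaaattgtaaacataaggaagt
Ifitm2, chr7:140955912-140956211, minus strand: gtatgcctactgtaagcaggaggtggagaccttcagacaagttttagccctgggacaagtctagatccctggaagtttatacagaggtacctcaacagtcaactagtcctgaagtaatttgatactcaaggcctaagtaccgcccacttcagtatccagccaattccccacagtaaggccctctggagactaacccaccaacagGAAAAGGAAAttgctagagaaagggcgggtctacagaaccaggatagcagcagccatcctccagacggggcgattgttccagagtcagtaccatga
Ifitm3, chr7:141010695-141010994, minus strand: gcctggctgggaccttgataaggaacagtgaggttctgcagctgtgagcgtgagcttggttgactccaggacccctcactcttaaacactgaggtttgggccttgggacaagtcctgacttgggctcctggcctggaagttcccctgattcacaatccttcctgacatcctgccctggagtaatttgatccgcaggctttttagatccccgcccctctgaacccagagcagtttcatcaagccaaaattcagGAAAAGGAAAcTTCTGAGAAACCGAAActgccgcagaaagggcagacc
Ifitm6, chr7:141016843-141017142, minus strand: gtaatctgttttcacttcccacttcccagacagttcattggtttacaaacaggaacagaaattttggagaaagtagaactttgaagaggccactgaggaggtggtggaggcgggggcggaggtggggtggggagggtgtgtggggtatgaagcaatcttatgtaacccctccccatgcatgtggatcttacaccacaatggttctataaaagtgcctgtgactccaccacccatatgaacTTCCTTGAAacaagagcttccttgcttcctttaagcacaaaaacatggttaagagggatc
The windows of Ifitm1 and Ifitm6 are set on RefSeq starts that lie inside the GENCODE spans of these genes, which have 3 transcripts each, so their outermost GENCODE starts were not searched. The Ifitm1 window held neither motif. The Ifitm2 window held 1 ISRE match, beginning 46 bases before the start. The Ifitm3 window held 2 ISRE matches, beginning 2 and 19 bases after the start, and 1 GAS match beginning 13 bases after it, which overlaps the second ISRE match. The Ifitm6 window held 1 GAS match, beginning 10 bases before the start. Among all 32851 windows of this length, 3.44% held the ISRE motif and 8.30% the GAS motif. Among 39 genes of the type I interferon list with a window, 21 held the ISRE motif, which is 53.8% of them against 3.99% of all 27025 genes with a window. A match describes letters in the window and does not show binding.

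After filtering, bone marrow held 9887 KO and 7591 WT cells, at medians of 2734 and 2264 UMIs, and tumor held 10507 KO and 10474 WT cells, at medians of 7977 and 6395 UMIs. The tumor libraries were sorted on CD45 yet kept a stromal or carcinoma-like cluster of 150 KO and 72 WT cells. S100a8, the deleted gene, had 6 UMIs in KO bone marrow against 2078230 in WT bone marrow, and 84 in KO tumor against 11153 in WT tumor, which matches the genotype labels. KO and WT libraries shared 30 cell barcodes in bone marrow and 32 in tumor. Levels (CPM) are UMIs per 1000000 of the class total, with S100a8, S100a9, mitochondrial, ribosomal protein and hemoglobin genes left out of that total. Cell classes were rebuilt by clustering, named from marker genes, and called "-like" for that reason. Intervals are 95% and cover counting error only. They treat every UMI as independent and hold nothing of the spread between cells, mice or libraries. Tumor monocyte or macrophage-like cells sat mostly in clusters 4 and 2 in KO and in clusters 3 and 7 in WT, so class values there also carry the mix of clusters.

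Classes with 100 or more KO cells and 100 or more WT cells were compared. A value was measured where KO and WT together had at least 50 UMIs, and was called lower or higher where it lay past 1.5-fold. In bone marrow 43 of 45 member values were measured, of which 9 were lower and 9 higher in KO, against 4.47% and 3.64% of all gene-by-class values. In tumor 24 of 25 were measured, of which 7 were lower and 9 higher in KO, against 14.0% and 8.19%. Ifitm1 in plasmacytoid dendritic-like and in T or NK-like cells of bone marrow, and Ifitm6 in tumor NK-like cells, were under the minimum of UMIs. The members were chosen from this contrast, so nothing is read from these counts.

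**Figure D1:**
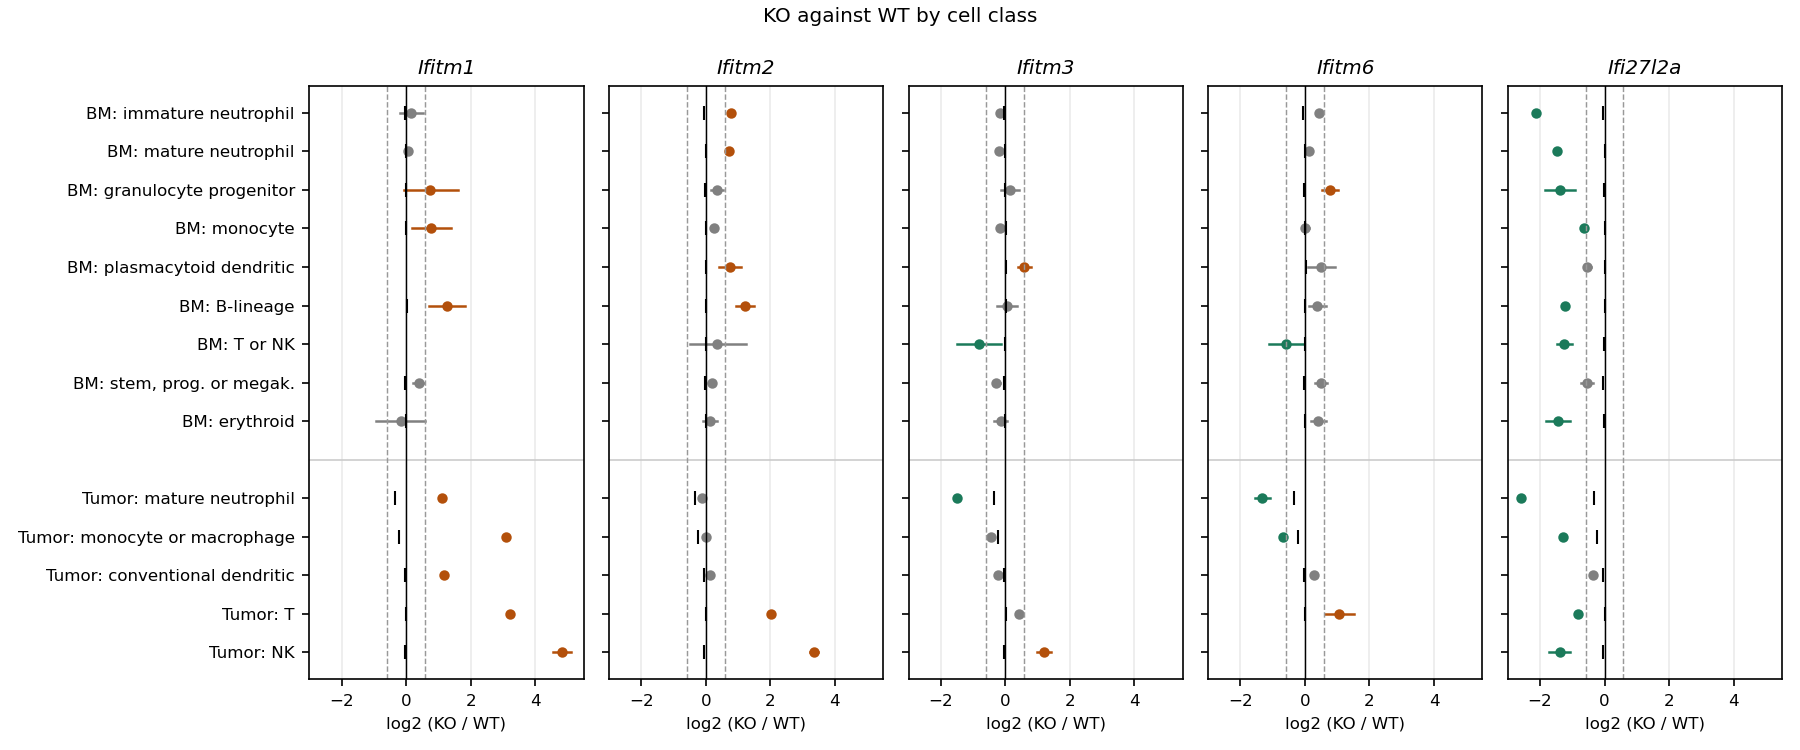
log2 of the KO over WT level ratio (x axis) of each gene in each cell class of bone marrow (BM) and tumor (rows). Points are class values with 95% counting intervals, green where lower and orange where higher in KO past 1.5-fold (dashed lines), gray within it, and the black tick is the median of all measured genes of the class. All Ifi27l2a points lie left of 0, and all 5 tumor points of Ifitm1 lie right of it.

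Ifi27l2a was lower in KO by value in all 14 classes of both tissues, and past 1.5-fold in 11 of them. In bone marrow immature neutrophil-like cells its level was 175 CPM in KO (168 to 184) against 772 CPM in WT (748 to 797), 4.40-fold lower (4.17 to 4.65). Mature neutrophil-like cells held 1485 CPM in KO and 4096 CPM in WT, 2.76-fold lower (2.68 to 2.84). The immature cells had the lowest ratio of KO to WT in bone marrow, and the mature cells the highest WT level.

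Lymphoid and other myeloid classes of bone marrow went the same way. B-lineage-like cells held 627 CPM in KO and 1479 CPM in WT, 2.36-fold lower (2.23 to 2.50). Each B-lineage cluster was nearer to 1 by value than the class ratio of 0.424. The ratios were 0.613 (cluster 0), 0.602 (cluster 1), 0.501 (cluster 12) and 0.4355 (cluster 21). With 282 KO and 960 WT cells in cluster 1 and 165 KO and 195 WT cells in cluster 12, the class value also carries the mix. Monocyte-like cells, the class with the highest KO level, held 2228 CPM in KO and 3450 CPM in WT, 1.55-fold lower (1.502 to 1.597). T or NK-like cells held 285 CPM in KO and 675 CPM in WT, 2.37-fold lower (2.02 to 2.77). Granulocyte progenitor-like cells were low in both libraries, with 27.3 CPM in KO and 70.9 CPM in WT, as were erythroid-like cells, with 39.1 CPM in KO and 106 CPM in WT. The 10 highest erythroid-like cells gave 82.35% of the 85 KO UMIs and 74.19% of the 186 WT UMIs. The ratio was 0.290 in erythroid cluster 15 and 0.652 (0.3985 to 1.058) in cluster 20. In erythroid-like cells Ifi27l2a was at 2.63% of the mature neutrophil-like level in KO and 2.58% in WT, while Retnlg, a mature neutrophil gene that erythroid cells should lack, was at 2.53% in KO and 1.31% in WT. The WT share of Ifi27l2a thus lay above that of Retnlg, and the KO shares were close to each other. The part of free RNA in these values was not tested. Plasmacytoid dendritic-like cells held 1080 CPM in KO and 1560 CPM in WT, and stem, progenitor or megakaryocyte-like cells 124 CPM in KO and 180 CPM in WT, both within 1.5-fold at 1.44-fold lower (1.33 to 1.57) and 1.45-fold lower (1.28 to 1.65).

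In tumor the widest gap of Ifi27l2a was again in neutrophils. Mature neutrophil-like cells held 906 CPM in KO (889 to 923; 3102 cells) against 5429 CPM in WT (5224 to 5641; 215 cells), 5.99-fold lower (5.74 to 6.25). Monocyte or macrophage-like cells held 1642 CPM in KO and 3966 CPM in WT, 2.42-fold lower (2.39 to 2.44). T-like cells held 1435 CPM in KO and 2553 CPM in WT, 1.78-fold lower (1.74 to 1.82). NK-like cells held far less, with 58.3 CPM in KO and 152 CPM in WT, 2.61-fold lower (2.10 to 3.26). Conventional dendritic-like cells held 1206 CPM in KO and 1550 CPM in WT, 1.29-fold lower (1.25 to 1.32), which is within 1.5-fold. The median of all measured genes was itself shifted in the neutrophil and monocyte or macrophage classes, by -0.34 and -0.23 on the log2 scale, and relative to it Ifi27l2a stood at -2.25 and -1.04. The monocyte or macrophage value moved with the handling of doublets, to a log2 ratio of -0.58 with doublets kept, against -1.27.

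The lower level was seen inside clusters as well as over classes. Across bone marrow neutrophil-like clusters of 50 or more KO and 50 or more WT cells, the ratio of KO to WT ran from 0.183 (cluster 5) to 0.540 (cluster 2). Cluster 7, led by Ifit3, Ifit1 and Rsad2 and so an interferon-led group of mature neutrophil-like cells, held 2109 CPM of Ifi27l2a in KO and 5617 CPM in WT, a ratio of 0.376. Tumor cluster 7, an interferon-led monocyte group with Ifit2 and Irf7 among its leading genes, held 3561 CPM in KO and 6540 CPM in WT, a ratio of 0.544. The other monocyte or macrophage clusters had ratios of 0.543 (cluster 1), 0.693 (cluster 2) and 0.721 (cluster 3), so each comparable cluster was nearer to 1 than the class ratio of 0.414, and clusters 2 and 3 were within 1.5-fold. Among tumor T-like clusters the ratio ran from 0.286 (cluster 6, cycling) to 1.03 (cluster 13). The Foxp3-led cluster 8 held 3309 CPM in KO and 3365 CPM in WT, a ratio of 0.983 (0.945 to 1.02), and dendritic cluster 21 held 2054 CPM in KO and 1914 CPM in WT, a ratio of 1.07 (1.03 to 1.12). Clusters 8, 13 (0.854 to 1.24) and 21 were the tumor clusters of a compared class whose interval reached or passed 1.

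**Figure D2:**
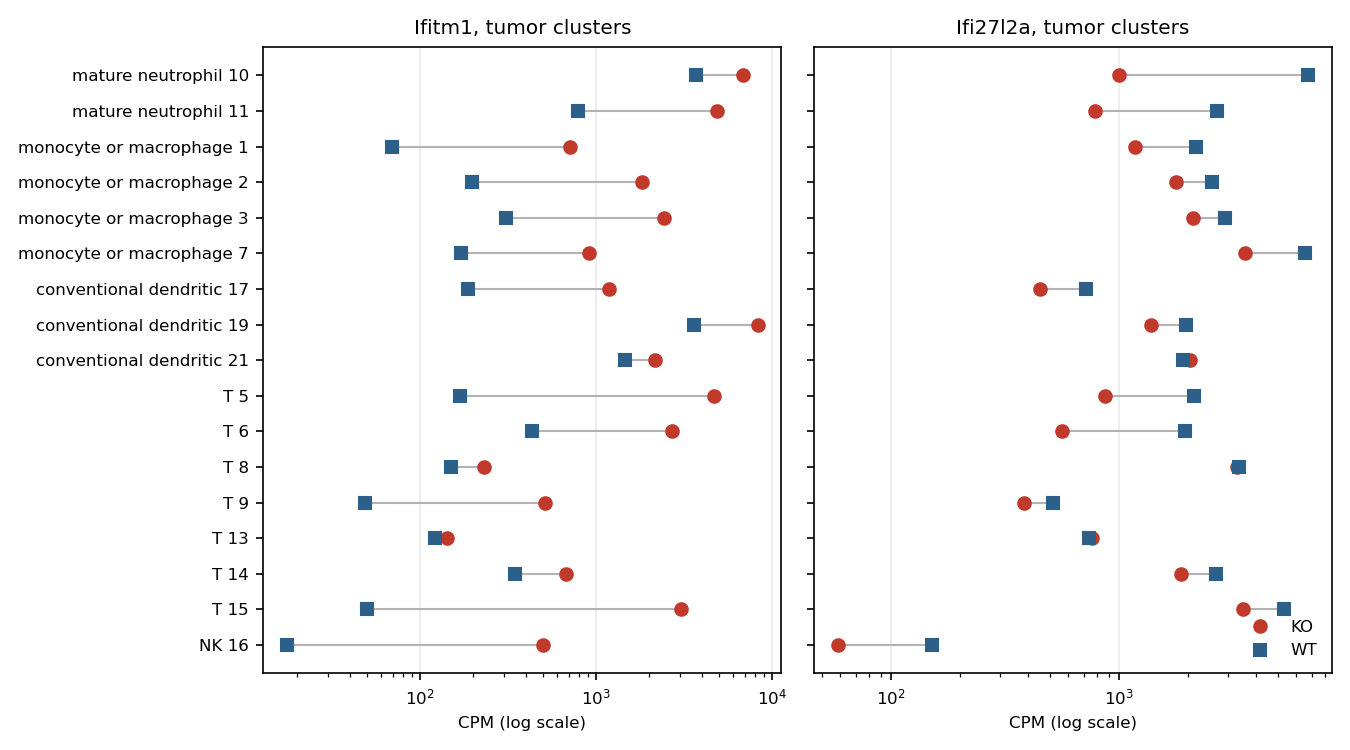
Levels of Ifitm1 (left) and Ifi27l2a (right) in CPM on a log axis in each tumor cluster of a compared class that held 50 or more KO and 50 or more WT cells (rows, class and cluster number). Red circles are KO and blue squares WT, joined within a cluster. Ifitm1 is to the right in KO in every cluster shown, by a small margin in T clusters 8 and 13, and Ifi27l2a is to the left in KO except in T 8, where the levels nearly meet, T 13 and conventional dendritic 21.

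Cells were also compared at a fixed depth, thinned to 1000 UMIs of the counted genes. In tumor mature neutrophil-like cells 41.9% of 3039 KO cells had an Ifi27l2a UMI (40.1 to 43.6), against 69.5% of 200 WT cells (62.6 to 75.8). Unthinned, the shares were 65.1% in KO and 76.7% in WT, at medians of 3796 and 2410 UMIs. High-level cells differed most: 0.527% of KO and 22.5% of WT tumor neutrophil-like cells had 10 or more Ifi27l2a UMIs of 1000. The same measure gave 0.937% of KO and 10.3% of WT tumor monocyte or macrophage-like cells, and 0.847% of KO and 9.64% of WT bone marrow mature neutrophil-like cells. Thinning kept 3187 of 3728 KO but only 861 of 1626 WT cells of that bone marrow class, so its shares describe the deeper cells. In tumor NK-like cells, the tumor class with the lowest level, 5.41% of KO and 9.95% of WT cells had a UMI at that depth.

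**Figure D3:**
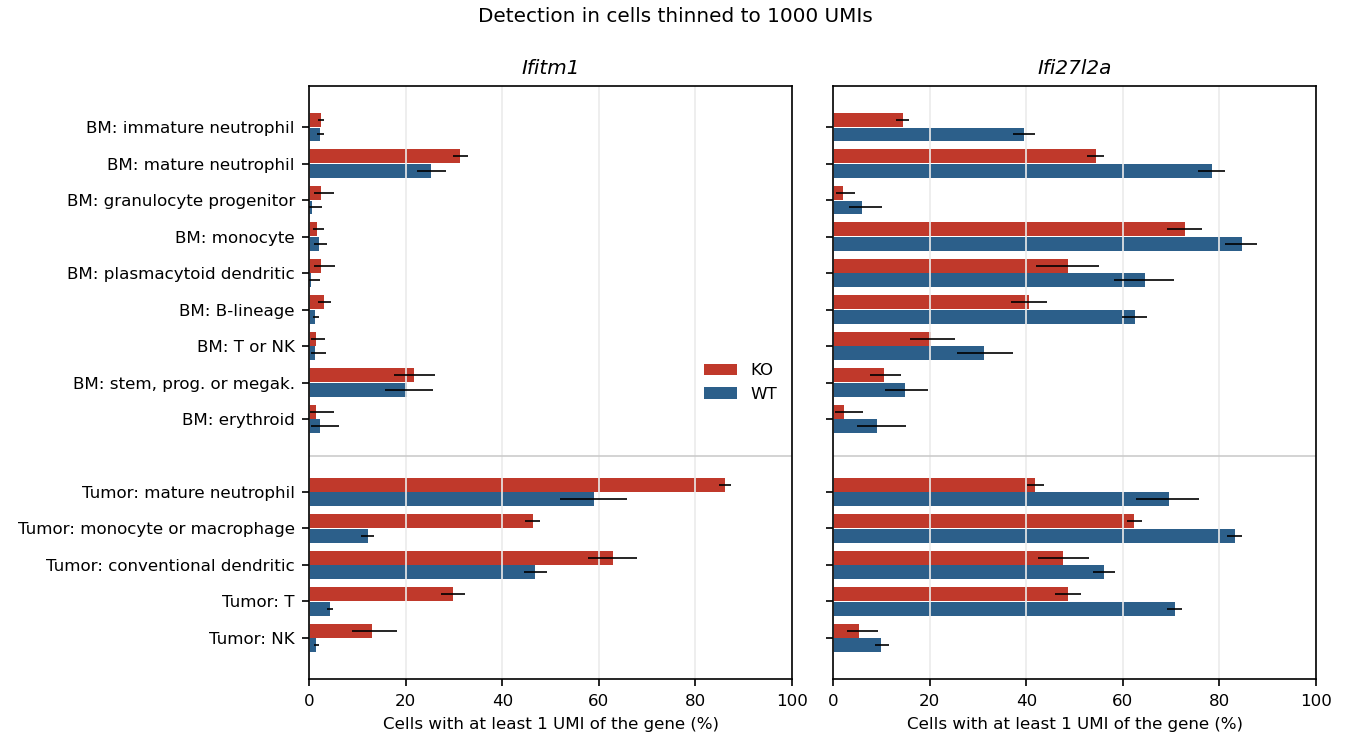
Share of cells (x axis, %) with at least 1 UMI of Ifitm1 (left) or Ifi27l2a (right) after thinning each cell to 1000 UMIs, by cell class (rows). Red bars are KO and blue bars WT, with exact binomial 95% intervals. KO bars are longer for Ifitm1 in all 5 tumor classes and shorter for Ifi27l2a in all classes.

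Ifitm1 went the other way, and most of that was in tumor. In tumor mature neutrophil-like cells it stood at 5962 CPM in KO (5919 to 6006) against 2738 CPM in WT (2592 to 2889), 2.18-fold higher (2.06 to 2.30). Conventional dendritic-like cells held 4688 CPM in KO and 2077 CPM in WT, 2.26-fold higher (2.22 to 2.30). Monocyte or macrophage-like cells held 1940 CPM in KO and 228 CPM in WT, 8.51-fold higher (8.24 to 8.79). All 4 monocyte or macrophage clusters with at least 50 cells in each library were higher in KO, by 5.34-fold (cluster 7) to 10.4-fold (cluster 1). The class value fell to a log2 ratio of 2.14 at Leiden resolution 2, against 3.09 in the main setting. At 1000 UMIs per cell, 46.2% of KO and 12.1% of WT monocyte or macrophage-like cells had an Ifitm1 UMI, against 77.9% and 32.0% unthinned.

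T-like cells of tumor held 2299 CPM of Ifitm1 in KO (2264 to 2334) against 247 CPM in WT (239 to 255), 9.31-fold higher (8.99 to 9.65). The difference was uneven over T clusters. Cluster 5, led by Cd8b1, Cd8a, Gzmk and Pdcd1, held 4684 CPM in KO (537 cells) and 169 CPM in WT (777 cells), 27.8-fold higher (25.5 to 30.3). Cluster 14, led by Tnfsf8, Tnfsf11 and Cd4, held 677 CPM in KO and 344 CPM in WT, 1.97-fold higher (1.83 to 2.12). The Foxp3-led cluster 8 held 230.5 CPM in KO and 150 CPM in WT, 1.54-fold higher (1.31 to 1.80). Cluster 15, led by Ifit3 and other interferon-induced genes, held 3023 CPM in KO and 49.7 CPM in WT, 60.8-fold higher (42.5 to 90.1), over 57 KO and 169 WT cells. The CD8-led, interferon-led and cycling clusters thus held the high KO levels, with 2681 CPM in KO against 430.5 CPM in WT in cycling cluster 6, and the Foxp3-led cluster did not.

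At 1000 UMIs per cell, 47.3% of KO cells of cluster 5 had an Ifitm1 UMI (43.0 to 51.6) and 3.11% of WT cells (2.00 to 4.59). Over all T-like cells these shares were 29.7% in KO and 4.25% in WT thinned, and 45.4% and 8.73% unthinned, at medians of 6210 and 5112 UMIs. NK-like cells held 499 CPM in KO (222 cells) and 17.6 CPM in WT (1665 cells), 28.4-fold higher (23.4 to 34.8), but 81.3% of the 787 KO UMIs came from the 10 highest cells, against 44.9% of the 118 WT UMIs. The share of NK-like cells with an Ifitm1 UMI was 13.1% in KO and 1.39% in WT thinned, and 35.6% and 4.50% unthinned.

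The KO tumor library held 3102 mature neutrophil-like cells and the WT tumor library 215, and neutrophil RNA in other classes differed in the same direction. S100a9, a neutrophil gene that T cells should lack, stood at 208 CPM in KO against 6.17 CPM in WT T-like cells, which is 0.420% and 0.0145% of its level in the neutrophil-like cells of the same library. Ifitm1 in T-like cells stood at 38.6% of its neutrophil level in KO and 9.02% in WT. In the Il17a-led and Trdc-led cluster 12, which stayed unnamed, Ifitm1 was at 49.2 CPM in KO against 32.8 CPM in WT, or 0.826% and 1.199% of the neutrophil level. S100a9 was at 131 CPM in KO cells of cluster 12 and 125 CPM in KO cells of cluster 5. The part of free RNA in the T-like and NK-like values was not tested.

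Bone marrow Ifitm1 was high in few classes and differed little where it was high. Mature neutrophil-like cells held 638 CPM in KO and 612 CPM in WT, 1.04-fold higher (0.976 to 1.12). Their clusters went in different directions, from 1.36-fold higher in cluster 2 to a ratio of 0.534 in cluster 6, which held 165 CPM in KO and 309 CPM in WT. The mix of clusters differed too, with 407 KO and 13 WT cells in cluster 4 and 1255 KO and 834 WT cells in cluster 6. Stem, progenitor or megakaryocyte-like cells held 257 CPM in KO and 197 CPM in WT, 1.30-fold higher (1.17 to 1.45). Immature neutrophil-like cells held 22.4 CPM in KO and 20.0 CPM in WT, far below the mature ones. Over whole classes, values past 1.5-fold appeared at low levels: 29.5 CPM in KO and 12.4 CPM in WT B-lineage-like cells, 23.6 and 13.9 CPM in KO and WT monocyte-like cells, and 20.1 and 12.03 CPM in KO and WT granulocyte progenitor-like cells. The granulocyte progenitor ratio of 1.67 rested on 48 KO and 18 WT UMIs, and its interval held 1 (0.955 to 3.055). Thinned, 1.68% of KO and 1.99% of WT monocyte-like cells had an Ifitm1 UMI. Ifitm1 in B-lineage-like cells was at 4.62% of the mature neutrophil-like level in KO and 2.02% in WT, where Retnlg was at 1.72% in KO and 0.821% in WT. Camp, a gene of immature neutrophils, was at 1.12% of its immature neutrophil-like level in KO and 1.18% in WT B-lineage-like cells, and the summed neutrophil markers there came to 3397 CPM in KO and 3239 CPM in WT. The part of free RNA in this value was not tested.

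Ifitm2 was higher in KO in bone marrow neutrophils and in tumor lymphocytes. In immature neutrophil-like cells it stood at 498 CPM in KO (485 to 512) against 287 CPM in WT (272 to 302), 1.74-fold higher (1.64 to 1.84). Mature neutrophil-like cells held 1541 CPM in KO and 929 CPM in WT, 1.66-fold higher (1.58 to 1.75), and all 4 of their clusters with at least 50 cells in each library were higher, by 1.39-fold to 1.56-fold. The mature value thus lay near the limit for a call, and was under it, at a log2 ratio of 0.55, with clusters weighted equally. Plasmacytoid dendritic-like cells held 223 CPM in KO and 132 CPM in WT, 1.70-fold higher (1.34 to 2.15), and B-lineage-like cells 114 CPM in KO and 49.2 CPM in WT, 2.31-fold higher (1.91 to 2.79). B-lineage cluster 0 was 1.37-fold higher (0.767 to 2.44) and cluster 12 was 1.40-fold higher (1.11 to 1.77). Clusters 1 and 21, under the minimum of UMIs, held 56.2 and 54.2 CPM in KO against 21.4 and 19.4 CPM in WT. Cluster 12, with 165 KO and 195 WT cells, gave 193 of the 262 KO UMIs and 119 of the 195 WT UMIs. The B-lineage class value thus also carries the mix of clusters.

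Tumor T-like cells held 1073 CPM of Ifitm2 in KO and 266 CPM in WT, 4.04-fold higher (3.89 to 4.19), and NK-like cells held 1042 CPM in KO and 102 CPM in WT, 10.2-fold higher (9.35 to 11.2). Cluster 5 again stood out among the large T clusters, with 1393 CPM in KO and 97.0 CPM in WT, 14.4-fold higher (12.8 to 16.2). S100a9 moved with genotype in these classes as given for Ifitm1, and Ifitm2 in T-like cells stood at 21.2% of its neutrophil level in KO and 4.82% in WT. The tumor myeloid classes, where Ifitm2 was highest, hardly differed: 5062 CPM in KO and 5508 CPM in WT neutrophil-like cells (ratio 0.919), 3175 and 3123 CPM in KO and WT monocyte or macrophage-like cells (1.02), and 3629 and 3314 CPM in KO and WT conventional dendritic-like cells (1.10).

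Ifitm3, the best studied restriction factor of the family, was nearly level between KO and WT in bone marrow myeloid cells. Monocyte-like cells held 2668 CPM in KO and 2967 CPM in WT, a ratio of 0.899 (0.872 to 0.927). Immature neutrophil-like cells followed with 1089 CPM in KO and 1220 CPM in WT (ratio 0.893), and mature ones 1288 CPM in KO and 1484 CPM in WT (ratio 0.868). In 2 bone marrow classes it was past 1.5-fold, and neither direction held in every setting: plasmacytoid dendritic-like cells at 609 CPM in KO against 406 CPM in WT, and T or NK-like cells at 39.2 CPM in KO against 68.5 CPM in WT on 35 KO and 44 WT UMIs. In those plasmacytoid dendritic-like cells the log2 ratio ran from -0.261 to 0.595 over the alternatives.

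In tumor, Ifitm3 was lower in KO neutrophils. Mature neutrophil-like cells of the tumor held 1226 CPM of Ifitm3 in KO (1206 to 1246) against 3435 CPM in WT (3272 to 3604), 2.80-fold lower (2.66 to 2.95), and both clusters were lower. Thinned, 59.4% of KO and 79.0% of WT cells had an Ifitm3 UMI. Monocyte or macrophage-like cells held 3998 CPM in KO and 5429 CPM in WT, a ratio of 0.736 (0.730 to 0.743), which is -0.21 on the log2 scale once the shift of all genes is taken off. T-like cells held 469 CPM in KO and 348 CPM in WT, 1.35-fold higher (1.29 to 1.41), and NK-like cells 178 CPM in KO and 76.6 CPM in WT, 2.32-fold higher (2.00 to 2.68), on 280 KO and 515 WT UMIs. The KO to WT difference in NK-like cells was under 1.5-fold with doublets kept, at a log2 ratio of 0.31.

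Ifitm6, a mouse family member best known from myeloid cells, was highest in bone marrow immature neutrophil-like cells, at 4115 CPM in KO (4077 to 4153) against 3022 CPM in WT (2975 to 3070), 1.36-fold higher (1.34 to 1.39). All 4 of their clusters were higher in KO, by 1.27-fold (cluster 5) to 1.61-fold (cluster 13). Mature neutrophil-like cells held 1660 CPM in KO and 1531 CPM in WT, 1.08-fold higher (1.04 to 1.13). All 4 of their comparable clusters were further above 1 than the class, by 1.17-fold (cluster 7) to 1.41-fold (cluster 3), with the mix of clusters given for Ifitm1. Granulocyte progenitor-like cells held 203 CPM in KO and 119 CPM in WT, 1.71-fold higher (1.43 to 2.04). In B-lineage-like cells it was at 2.44% of the immature neutrophil-like level in KO and 2.54% in WT, where S100a9 was at 2.16% in KO and 1.71% in WT. T or NK-like cells held 69.4 CPM in KO and 104 CPM in WT. That is 1.69% of the immature neutrophil-like level in KO and 3.45% in WT, where S100a9 was at 1.93% in KO and 2.17% in WT, so only the WT share lay above that of S100a9. The part of free RNA in these values was not tested.

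In tumor Ifitm6 was lower in KO neutrophils, and T-like and NK-like cells held little of it. The monocyte or macrophage value differed between the class and most of its clusters, and conventional dendritic-like cells were within 1.5-fold. Mature neutrophil-like cells held 138 CPM in KO (131 to 145) against 348 CPM in WT (297 to 404), 2.52-fold lower (2.14 to 2.95). Monocyte or macrophage-like cells held 315 CPM in KO and 505 CPM in WT, 1.61-fold lower (1.56 to 1.65), but 3 of their 4 clusters with at least 50 cells in each library had ratios between 0.969 and 1.10. The log2 ratio of that class, -0.68, was -0.04 with clusters weighted equally. Conventional dendritic-like cells held 313 CPM in KO and 256 CPM in WT, 1.22-fold higher (1.15 to 1.30). T-like cells held 11.7 CPM in KO and 5.59 CPM in WT on 85 and 87 UMIs, and Ifitm6 there was nearly absent. Cluster 0, with 999 KO and 49 WT cells, had Ifitm6 among its leading genes beside Chil3 and Mgst1, and stayed unnamed because defining markers of the best-scoring class were near 0.

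**Figure D4:**
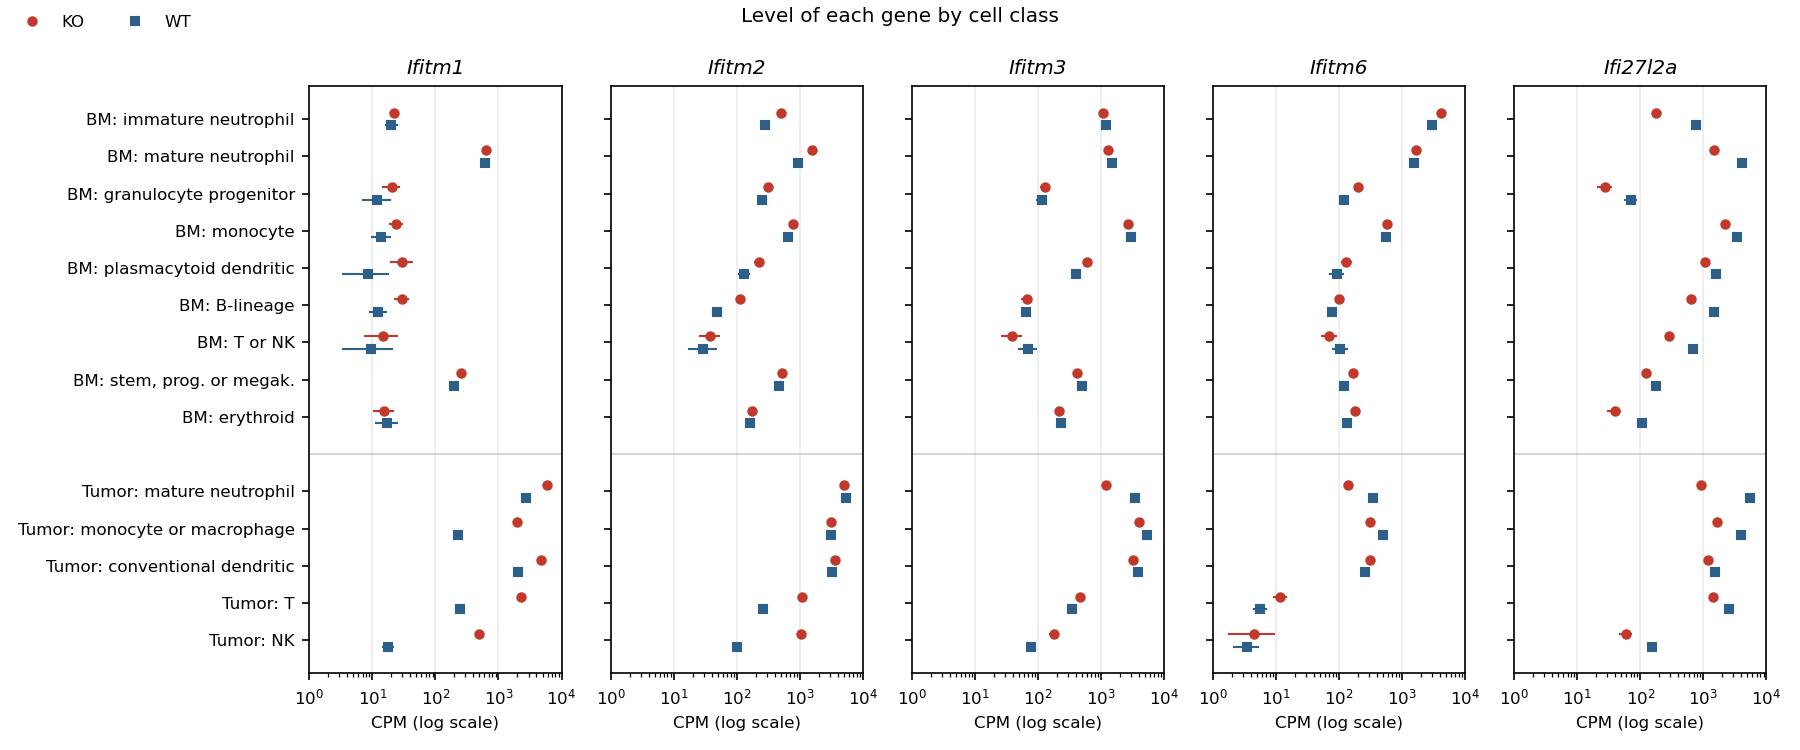
Level of each gene (CPM, log axis) in the compared classes of bone marrow (BM) and tumor (rows). Red circles are KO and blue squares WT, with exact Poisson 95% intervals for counting error. Ifitm6 peaks in bone marrow immature neutrophil-like cells at 4115 CPM in KO against 3022 CPM in WT, and Ifitm1 is below 50 CPM in 7 of the 9 bone marrow classes.

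The order of the classes differed by gene. In KO bone marrow Ifi27l2a and Ifitm3 were highest in monocyte-like cells, at 2228 and 2668 CPM, Ifitm1 and Ifitm2 in mature neutrophil-like cells, at 638 and 1541 CPM, and Ifitm6 in immature ones. In WT bone marrow Ifi27l2a was instead highest in mature neutrophil-like cells, at 4096 CPM against 3450 CPM in monocyte-like cells, intervals apart (4005 to 4189 and 3378 to 3524). In tumor, monocyte or macrophage-like cells were highest for Ifitm3 in KO and WT. For Ifi27l2a they came first in KO, at 1642 CPM, above T-like cells at 1435 CPM, while in WT neutrophil-like cells at 5429 CPM came before them.

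Several members were often found in the same cell. Of cells thinned to 1000 UMIs, 67.2% of KO and 77.0% of WT tumor neutrophil-like cells, and 71.8% of KO and 77.7% of WT monocyte or macrophage-like cells, had UMIs of 3 or more members. In bone marrow these shares were 62.1% in KO and 68.4% in WT mature neutrophil-like cells, and 31.6% in KO and 41.2% in WT immature ones. The mature shares cover only cells deep enough to be thinned, 3187 of 3728 in KO and 861 of 1626 in WT. The KO share was the larger in tumor conventional dendritic-like cells, at 69.0% in KO and 66.4% in WT, and in tumor T-like cells, at 18.9% in KO and 5.12% in WT. It was also larger in tumor NK-like cells, at 3.15% in KO and 0.302% in WT. In bone marrow it was larger in plasmacytoid dendritic-like cells (9.96% in KO, 6.25% in WT) and granulocyte progenitor-like cells (1.195% in KO, 0% in WT). In NK-like cells of the tumor 53.6% of KO and 80.3% of WT cells had no UMI of any member.

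The genes most like each member, by Pearson r of log2(CPM + 10) over 18 class-by-library levels in bone marrow and 10 in tumor, are given as a description, since the points share libraries and depth. For Ifi27l2a they were Samhd1 (r = 0.932), Tfeb and Slfn5 in bone marrow, and Samhd1 (0.949), Ifih1 and Irf9 in tumor. For Ifitm6 they were Pabpc1l (0.966), Mmp8 and Mettl9 in bone marrow, and Pira2 (0.996), Mpeg1 and Ralb in tumor. Ifitm3 went with Gpr141 (0.931), Lgals3 and Pik3r6 in bone marrow and with Ifngr2 (0.993), Alcam and Il6ra in tumor. For Ifitm2 the genes were Mapk14 (0.939), Nfe2 and Slpi in bone marrow, and Il1b (0.957), Cd80 and Cd14 in tumor. Ifitm1 had looser partners, with Gcnt2 (0.882), Clec4d and Preb in bone marrow and Dennd5a (0.859), Actn1 and Dot1l in tumor. Between members, r of Ifi27l2a with Ifitm1 was 0.197 in bone marrow and 0.385 in tumor, and r of Ifitm3 with Ifitm6 was 0.748 and 0.966.

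Other interferon-induced genes, from a list of 51 that holds no member, had a negative median log2 ratio in each class named here, as Ifi27l2a had a negative ratio. In tumor mature neutrophil-like cells 34 of 43 measured genes were lower and 0 higher, with a median log2 ratio of -1.45, beside -0.34 over all genes. Ifit3 stood there at 44.9 CPM in KO against 499 CPM in WT, and Zbp1, a nucleic acid sensor, at 110 CPM in KO against 728 CPM in WT. In monocyte or macrophage-like cells 37 of 48 were lower and 0 higher (median -0.92, all genes -0.23), with Irf7, a transcription factor that amplifies interferon responses, at 123 CPM in KO against 622 CPM in WT.

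In bone marrow 22 of 39 list genes were lower in immature neutrophil-like cells (median -0.65, all genes -0.05), among them Usp18, which removes ISG15 and dampens interferon signaling, at 11.1 CPM in KO against 24.3 CPM in WT. Monocyte-like cells had 18 of 46 lower (median -0.52) and mature neutrophil-like cells 13 of 41 (median -0.33), with Slfn4, a myeloid Schlafen gene, at 513 CPM in KO against 947 CPM in WT. No list gene was higher past 1.5-fold in these 3 classes. In tumor T-like cells, where Ifitm1 and Ifitm2 were higher, 12 of 47 list genes were lower and 1 higher (median -0.29, all genes 0.01), and in NK-like cells 14 of 39 were lower and 1 higher (median -0.40, all genes -0.04). Conventional dendritic-like cells had 12 of 48 lower and 1 higher (median -0.31). Ifitm1 and Ifitm2 thus stood against the direction of most list genes in tumor lymphocytes, while Ifi27l2a stood with it.

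**Figure D5:**
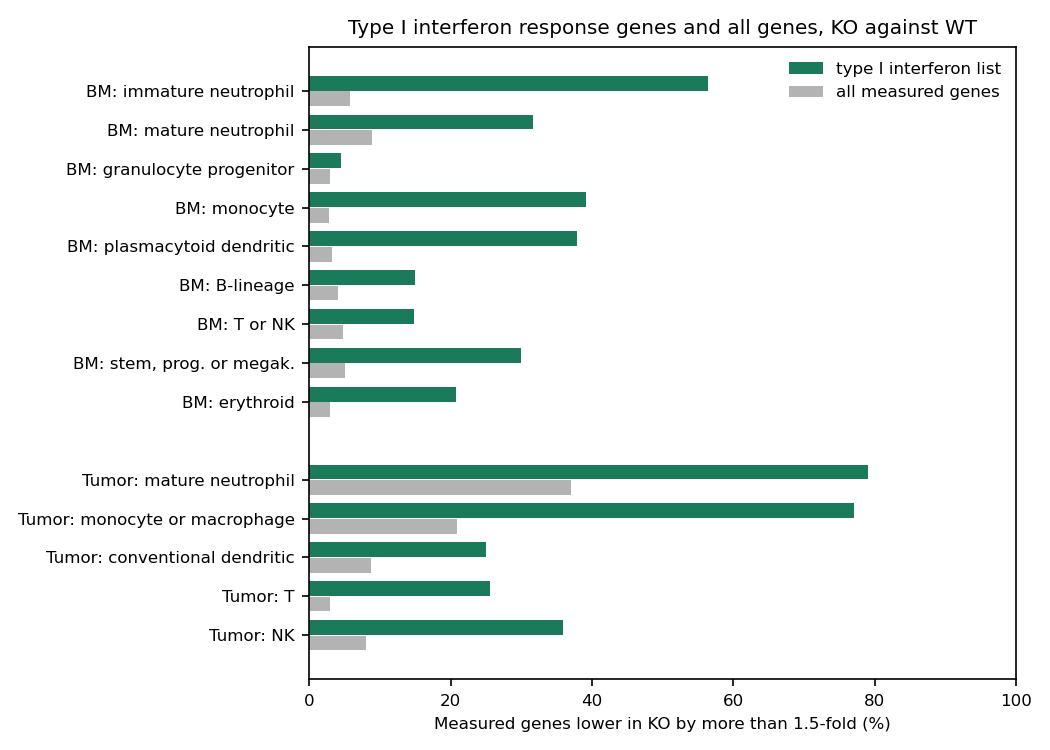
Share of measured genes (x axis, %) lower in KO than in WT by more than 1.5-fold in each cell class (rows). Green bars are the type I interferon response list, without the 5 members, and gray bars all measured genes. The list bar is longer than the gray bar in every class, and in tumor monocyte or macrophage-like cells 37 of 48 list genes and 20.9% of all genes were lower.

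Of the interferon gamma response list, 19 of 24 genes were lower in tumor monocyte or macrophage-like cells, against 20.9% of all genes, and 12 of 22 in tumor mature neutrophil-like cells, against 37.1%, where 3 others were higher. In tumor T-like cells 5 of 23 were lower, against 2.92% of all genes, and 22 of 23 lay below the median of all genes. Conventional dendritic-like cells had 0 of 24 lower. In bone marrow, 5 of 17 were lower in immature neutrophil-like cells, against 5.76%, and 5 of 20 in stem, progenitor or megakaryocyte-like cells, against 5.06%, while 0 to 3 genes were lower, and 0 to 3 higher, in the other bone marrow classes. The guanylate-binding protein gene Gbp3 stood at 42.9 CPM in KO against 89.3 CPM in WT monocyte or macrophage-like cells. Of the list of interferon ligands, receptors and signaling genes, 5 of 16 were lower and 3 higher in tumor monocyte or macrophage-like cells. The shares of all genes there were 20.9% and 7.66%. In tumor neutrophil-like cells 5 of 14 were lower and 1 higher, against 37.1% and 12.2%, so the lower count was near the share of all genes. In tumor NK-like cells 3 of 14 were lower, against 7.97%. In bone marrow 3 were lower in each of B-lineage-like (of 13), immature neutrophil-like (of 13) and mature neutrophil-like cells (of 14), against 4.12%, 5.76% and 8.93%. The other classes of both tissues had 0 or 1 lower. Socs3, a feedback inhibitor of cytokine signaling, was at 643 CPM in KO against 299 CPM in WT monocyte or macrophage-like cells.

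Relatives and neighbors of the members mostly lay within 1.5-fold in the classes named here. Ifi27, a relative of Ifi27l2a, held 144 CPM in KO and 114 CPM in WT tumor neutrophil-like cells (ratio 1.26). Its level in monocyte or macrophage-like cells was 83.3 CPM in KO and 58.5 CPM in WT (ratio 1.42). Of the 3 relatives measured in that class, 1 was higher past 1.5-fold, against 7.66% of all genes. Rnh1, which lies beside the Ifitm cluster, held 248 CPM in KO and 201 CPM in WT tumor neutrophil-like cells (ratio 1.24), and Pkp3 held 147 CPM in KO against 186 CPM in WT tumor T-like cells (ratio 0.792). Ddx24, near Ifi27l2a, held 121 CPM in KO and 173 CPM in WT monocyte or macrophage-like cells (ratio 0.698). Of the 12 listed neighbors, 3 were measured in tumor neutrophil-like cells and 0 were past 1.5-fold, and of 8 measured in tumor T-like cells 1 was lower. In tumor NK-like cells 3 of 7 were higher, against 6.59% of all genes, among them Pkp3 at 123 CPM in KO against 79.8 CPM in WT. In monocyte or macrophage-like cells 2 of 6 were lower, against 20.9% of all genes.

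Immediate early genes, which also rise when tissue is dissociated, were higher in KO neutrophils of both tissues, with 7 of 12 measured in immature and 5 of 12 in mature neutrophil-like cells of bone marrow, and 8 of 14 in those of tumor. Hspa1b, a heat shock gene, stood out there with 1297 CPM in KO and 161 CPM in WT. Summed, the list came to 3264 CPM in KO against 2267 CPM in WT for immature neutrophil-like cells, 13395 CPM in KO against 13004 CPM in WT for mature ones, and 32571 CPM in KO against 20679 CPM in WT for those of tumor. In tumor T-like cells it was 6040 CPM in KO and 5833 CPM in WT. The part of these differences in the member values was not tested.

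Beside the counts by class stand the shares of all measured genes past the same fold, lower and then higher in KO. Bone marrow neutrophil classes each had 1 member lower and 1 higher, against 5.76% and 2.56% of genes in immature and 8.93% and 7.26% in mature neutrophil-like cells. Monocyte-like cells had 1 lower and 1 higher, against 2.81% and 2.51%, and granulocyte progenitor-like cells 1 lower and 2 higher, against 2.89% and 2.77%. B-lineage-like cells had 1 lower and 2 higher, against 4.12% and 5.82%, and T or NK-like cells 3 lower and 0 higher, against 4.71% and 4.23%. Erythroid-like cells had 1 lower and 0 higher, against 2.94% and 2.09%, plasmacytoid dendritic-like cells 0 lower and 2 higher, against 3.24% and 4.31%, and stem, progenitor or megakaryocyte-like cells 0 in either direction, against 5.06% and 2.12%. In tumor, mature neutrophil-like cells had 3 lower and 1 higher, against 37.1% and 12.2%, and monocyte or macrophage-like cells 2 lower and 1 higher, against 20.9% and 7.66%. Tumor T-like cells had 1 lower and 3 higher, against 2.92% and 7.78%, NK-like cells 1 lower and 3 higher, against 7.97% and 6.59%, and conventional dendritic-like cells 0 lower and 1 higher, against 8.70% and 8.03%. The largest backgrounds, in tumor neutrophil-like and monocyte or macrophage-like cells, are also where the median of all genes was shifted.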

How the data were processed

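CD45-positive cells of 4 groups were profiled by 10x Genomics droplets, with 3 mice pooled into the 1 library of each group, as the labels state. The files deposited by the authors give unnormalized counts of UMIs for each gene in each barcode. Cell Ranger wrote them, in version 3.1.0 for bone marrow and 6.0.2 for tumor per the file headers. Seurat 4.3.0, R 4.2.1, another Cell Ranger version (6.1.2) and the builds mm10 and GRCm38 are named in the submitters' processing notes. Features sharing a symbol were added together. No barcode had fewer than 500 UMIs. Each tissue was analysed separately.

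Barcodes under 200 genes or over 10% mitochondrial UMIs were dropped. Doublets were scored with scrublet (scanpy 1.11.5) and removed at its automatic threshold in WT bone marrow (4.60% of barcodes) and KO tumor (7.71%). That threshold marked under 0.5% in the other libraries, where the highest scores were removed at 0.8% per 1000 barcodes (KO bone marrow 8.85%, WT tumor 9.62%). Cells were clustered per tissue (2000 variable genes without the 5 members, 30 components, 15 neighbors, Leiden resolution 1, igraph 0.11.9). Clusters were named from 18 marker lists and joined to classes after they were seen. No deposited cell annotation was used here.

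UMI counts were summed per library and class. With 1 library a group no test is possible, since cells are not replicates. Ratios carry exact conditional intervals, levels exact Poisson intervals and shares Clopper-Pearson intervals (scipy 1.17.1), all at 95%. A gene at 0 UMIs was set to a floor of 3 UMIs. Thinning drew 1000 UMIs of the counted genes per cell and left out shallower cells, most in mature neutrophil-like cells of bone marrow (541 KO and 765 WT cells). The code of the ratio and call was checked on simulated Poisson counts. These follow the model that the intervals assume, so they say nothing of the spread between cells, mice or libraries. The members and the 6 gene lists were chosen with earlier results of these data known. Named list genes are among up to 4 per list and class with the largest ratios, at least 100 UMIs and at least 0.2 of their highest class level, and the text gives a selection. Genes with patterns like a member were taken by highest r among genes with at least 50 CPM in a class. Alternatives are given in the closing section.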

Additional observations from a re-analysis of the deposited data

Results flagged for a closer look

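Ifitm3 went opposite ways in the joined T or NK-like class of bone marrow and in NK-like cells of tumor. Its log2 ratio of KO over WT was -0.81 in T or NK-like cells of bone marrow and 1.21 in NK-like cells of tumor. Other lymphocyte classes were within 1.5-fold for Ifitm3, at 0.43 in tumor T-like and 0.05 in bone marrow B-lineage-like cells. Ifitm6 likewise had a log2 ratio of -0.59 in T or NK-like cells of bone marrow and 1.06 in T-like cells of tumor. In each pair the 1 KO library of a tissue moved against the 1 KO library of the other, and the difference was not tested. Bone marrow values rest on 35 KO and 44 WT UMIs of Ifitm3 and 62 KO and 67 WT UMIs of Ifitm6, and both turned positive with doublets kept.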

How the results depend on the processing

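Of 34 member values past 1.5-fold, 20 stayed past it in the same direction under every alternative that gave a value, and of 459 alternative values 427 did so and 6 reversed. Part of this agreement was fixed in advance. A changed minimum of UMIs leaves a ratio as it is. Leaving out or adding clusters alters only the classes that hold them. Ifitm3 in bone marrow plasmacytoid dendritic-like cells reversed to a log2 ratio of -0.148 with doublets kept, -0.261 at Leiden resolution 2, -0.261 with at most 5% mitochondrial UMIs, and -0.254 with doublets removed at the expected rate in every library. In bone marrow T or NK-like cells, Ifitm3 reversed to 0.379 and Ifitm6 to 0.772 with doublets kept. Member values higher in KO bone marrow numbered 5 with cells thinned to 1000 UMIs, where 34 values were measured, against 9 of 43. Their cause was not tested beyond that fall in measured values. Counts of lower values in bone marrow, and of lower and higher values in tumor, stayed within 1.5 times under all alternatives. Ifi27l2a fell short of 1.5-fold in tumor NK-like cells, at -0.48, under the 5% mitochondrial limit. In bone marrow granulocyte progenitor-like cells it stayed past 1.5-fold under 10 of 12 alternatives, the weakest at -0.383. It did so under 13 of 14 in bone marrow monocyte-like, tumor T-like and tumor monocyte or macrophage-like cells, the weakest at -0.572, -0.569 and -0.584. Ifitm6 in tumor monocyte or macrophage-like cells stayed past 1.5-fold under 6 of 14 alternatives. The alternatives on doublets at the expected rate, on leaving out interferon-led clusters or cluster 4, and on adding cluster 0 were chosen after seeing the data. No paired analysis was possible because each group is 1 library, and for the same reason no replicate could be left out. Depth limits Ifitm1 and Ifitm6 in bone marrow lymphocytes, where few UMIs were counted.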
